A study of Mus musculus with 6 samples.

Results

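Transcripts of 10 genes of the TGF-beta and interleukin 10 pathways were followed, and 10 of 10 were present among the 32285 genes measured in each library. They were 3 ligands (Tgfb1, Tgfb2, Tgfb3), the receptor chains Tgfbr1 and Tgfbr2, the feedback regulators Smad7 and Skil, the cytokine Il10 and its receptor chains Il10ra and Il10rb. All were taken by symbol, and they were chosen with earlier results of these data known. The study sequenced single cells from mice carrying EMT6 tumors, a transplanted mouse mammary carcinoma line. Hosts were BALB/c wild-type mice (WT) or mice deficient in Cysltr1 (KO), the gene of a cysteinyl leukotriene receptor; every host carried a tumor, and the labels give no age. There were 6 libraries, 1 for each genotype from bone marrow, spleen and tumor, and each was a pool of cells from 3 mice. Marrow was enriched magnetically for progenitor cells, whereas spleen and tumor were enriched for cells bearing CD45, the common leukocyte antigen, so the carcinoma cells described here are those that came through that enrichment. Without a second pool of any kind, the comparison of genotypes has no replicate, and the spread in the comparison of tissues is between 1 library of each genotype.

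TGF-beta is a secreted cytokine that is stored in a latent form and must be released from its propeptide before it binds a receptor complex of type 1 and type 2 chains, encoded by Tgfbr1 and Tgfbr2. The receptors phosphorylate SMAD proteins, which move to the nucleus and induce, among other genes, Smad7, which blocks the receptor, and Skil, which encodes SnoN, a co-repressor of SMAD-driven transcription. Interleukin 10 is an anti-inflammatory cytokine made by macrophages, monocytes and lymphocytes; it signals through the ligand-binding chain IL10RA and the shared chain IL10RB to JAK1, TYK2 and STAT3. Both cytokines are known for restraining immune responses in tumors.

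Cells were sorted into classes in the data by fixed marker genes, and a class carries the name of its markers: "neutrophils" below means neutrophil-like cells by those markers. A class was used with at least 50 cells in a library. In spleen and tumor, the libraries labelled WT and KO gave 2640 and 1207 spleen neutrophils against 783 and 1057 in tumor, 202 and 184 monocytes against 295 and 309, 117 and 195 macrophages against 769 and 560, and 2913 and 3896 T cells against 54 and 123. The carcinoma class, defined by keratins and other epithelial genes, held 926 and 529 tumor cells, of which 617 and 334 had only the minimum of 3 markers. Csf3r, the first neutrophil marker, was detected in 96.9% and 98.3% of spleen neutrophils and in 41.4% and 41.2% of tumor neutrophils. Ly6c2, the first monocyte marker, was detected in 42.6% and 52.7% of spleen monocytes and in 54.2% and 62.5% of tumor monocytes. A rise or fall below is thus a difference between the class sums of spleen and tumor, whose cells may differ in type. Ptprc, which encodes CD45, was at 3.33 and 2.19 CPM (UMI counts scaled to the same total in each class and library) in the carcinoma class and at 243 and 259 CPM in tumor macrophages. A further 281 and 152 tumor cells had fibroblast markers, but their Krt8 level of 440 and 492 CPM, against 1080 and 1130 CPM in the carcinoma class, goes against that name, and they are called cells gated on fibroblast markers. In the tumor libraries 39.1% and 30.9% of cells had too few markers for any class, against at most 4.54% in the others. Totals ran from 40377940 to 75873784 UMIs (unique molecular identifiers, which count RNA molecules) per library, and any pair of libraries shared 46 to 128 cell barcodes.

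The targeted gene went against the labels in 2 tissues. Cysltr1 was at 3.03 CPM in spleen neutrophils of the library labelled WT (26 UMIs) and at 146 CPM in that labelled KO (553 UMIs); in marrow neutrophils it was at 0 and 156 CPM, and in tumor neutrophils at 13.6 and 14.4 CPM. The deleted part of the gene is not given in the labels, and UMIs can fall outside it. Genotypes are therefore given as labelled, with the library labelled WT first wherever values come in pairs. Tumor leukocytes also held keratin transcripts: the summed level of Krt8, Krt18 and Sfn was 15.4% and 17.1% of the carcinoma level in tumor neutrophils, 7.9% and 6.39% in monocytes, 9.27% and 5.16% in macrophages and 7.79% and 7.87% in T cells, after cells rich in carcinoma transcripts had been left out. Krt8 and Krt18 were at 0 in the spleen neutrophils and macrophages. These percentages are the measure of carcinoma RNA to be set beside each level in tumor leukocytes below.

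The 250 bases upstream of Tgfb1 and Tgfb2 are shown because these 2 ligands were distributed differently over the cell classes: Tgfb1 was found in every class, and Tgfb2 mainly in carcinoma cells and other tumor cells outside the leukocyte classes. Both are from RefSeq on GRCm38.p6, 5′ to 3′ on the gene's strand, with matches to 3 motifs on either strand in capitals: TATAAA, the core of a TATA box, CACGTG, an E-box, and GGGCGG, a GC box. The table of promoters held 4 of the 10 genes. The Tgfb1 stretch is chr7:25686752-25687001 on the plus strand and the Tgfb2 stretch chr1:186705990-186706239 on the minus strand.
Tgfb1: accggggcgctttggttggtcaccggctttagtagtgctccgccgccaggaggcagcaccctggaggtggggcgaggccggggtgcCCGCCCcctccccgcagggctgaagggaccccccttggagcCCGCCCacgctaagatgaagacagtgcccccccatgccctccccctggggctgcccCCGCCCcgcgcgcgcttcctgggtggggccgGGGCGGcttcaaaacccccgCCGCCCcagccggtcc
Tgfb2: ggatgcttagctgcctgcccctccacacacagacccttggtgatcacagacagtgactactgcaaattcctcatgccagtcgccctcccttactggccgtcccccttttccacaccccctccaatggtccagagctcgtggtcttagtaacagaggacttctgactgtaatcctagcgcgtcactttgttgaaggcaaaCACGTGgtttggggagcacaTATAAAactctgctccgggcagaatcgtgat
The Tgfb1 stretch had a GC content of 75.2%, with 5 GC boxes and neither of the other motifs. The Tgfb2 stretch had a GC content of 53.6%, close to the median of 52.4% over all 32851 promoters of the same length, with 1 TATA box, 1 E-box and no GC box. Over all promoters, TATAAA was present in 12.4%, CACGTG in 6.02% and GGGCGG in 32.7%, and 5 or more GC boxes in 1.93%. These are matches of letters in a window and were not tested as binding sites.

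**Figure D1:**
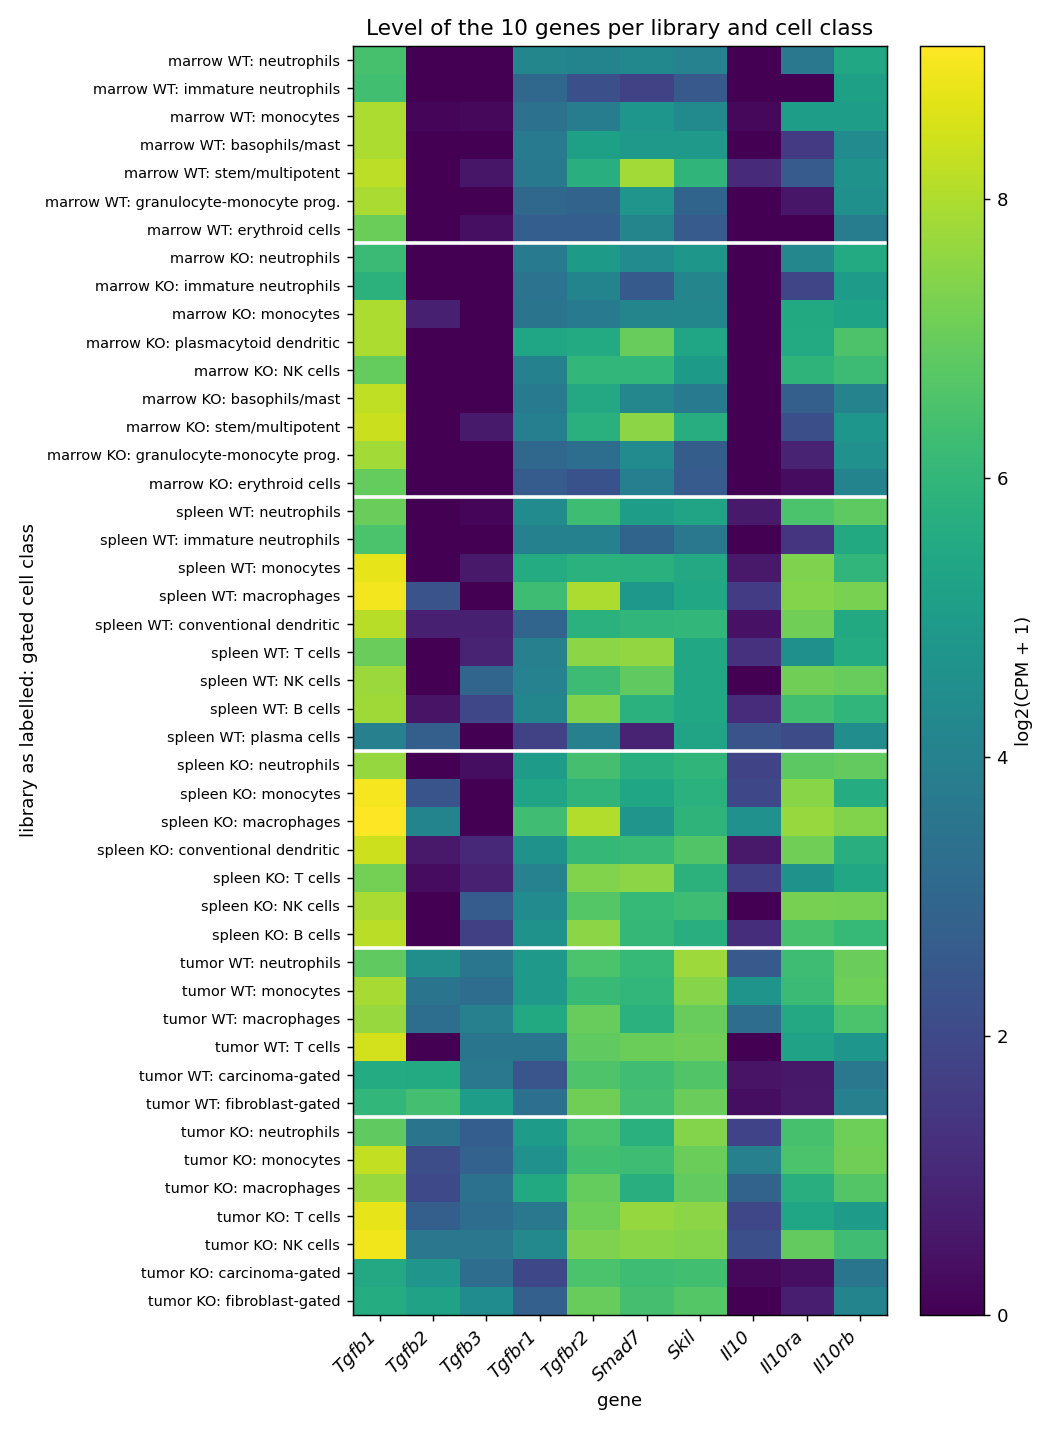
Level of the 10 genes, as log2(CPM + 1) by colour, in every library and gated class of at least 50 cells (rows; libraries separated by white lines). Tgfb1 is bright in nearly all rows, Tgfb2 and Tgfb3 mainly in tumor rows, and Il10ra is dark in carcinoma cells and early marrow cells.

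Across spleen and tumor, the member that rose in all 4 leukocyte classes was Skil, between 2.84-fold and 3.57-fold. Tgfb1 fell in macrophages (2.07-fold) and rose in T cells (2.64-fold). Il10 rose 12.6-fold in monocytes, and Il10ra fell in monocytes (1.77-fold) and macrophages (3.25-fold). In neutrophils 5 of 9 tested members were called, where 64.7% of all 10109 tested genes were: 3 rose (background 33.3%) and 2 fell (31.4%). In monocytes 5 of 8 were called, against 32.4% of 9227 genes, of which 4 rose (17.9%) and 1 fell (14.5%). In macrophages 7 of 10 were called, against 43.7% of 10665 genes, of which 3 rose (23.7%) and 4 fell (20%). In T cells 4 of 9 were called, against 23.1% of 11006 genes, of which 3 rose (12.2%) and 1 fell (11%). The share of members called was thus no higher than that of all genes in neutrophils. The members' median log2 change was -0.10 in neutrophils, 0.69 in monocytes, -0.55 in macrophages and -0.20 in T cells, beside 0.06, -0.02, 0.04 and -0.14 over all tested genes. Calls are by edgeR's quasi-likelihood test on UMIs summed per library and class, 2 libraries per tissue, with a Benjamini-Hochberg adjusted p under 0.05 over all genes. Scaling by library totals in place of the TMM factors moved the scale of log2 changes by 0.34 in neutrophils, -0.22 in monocytes, -0.29 in macrophages, 0.17 in T cells and 0.15 in the carcinoma comparison (less for genes near 0 in one tissue), so changes are relative to that choice and those that depend on it are named. With it, the genes higher against lower in tumor went from 3369 against 3173 to 4191 against 2290 in neutrophils, from 1653 against 1340 to 1266 against 1988 in monocytes, from 2526 against 2135 to 1815 against 2942 in macrophages, and from 1338 against 1206 to 1594 against 834 in T cells.

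**Figure D2:**
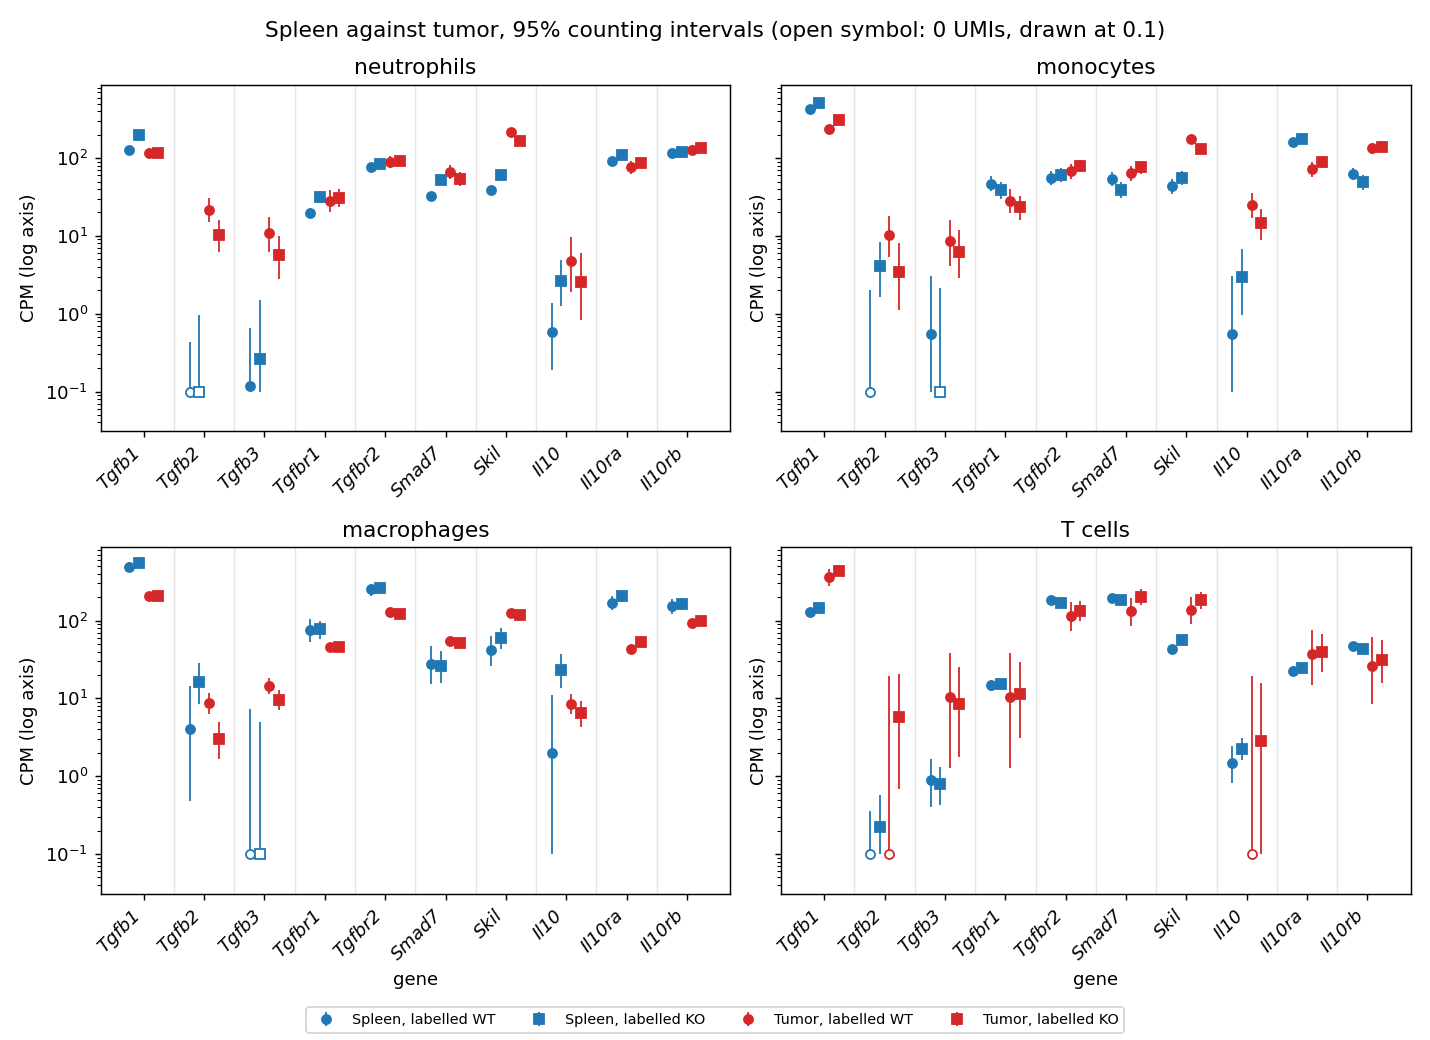
CPM of the 10 genes (log axis) in spleen (blue) and tumor (red) for 4 classes; circles are the libraries labelled WT, squares those labelled KO, and bars are exact 95% Poisson intervals, which cover counting error only. Both tumor points for Skil lie above both spleen points in all 4 panels, whereas Tgfb1 is lower in tumor macrophages and higher in tumor T cells.

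Tgfb1, the main TGF-beta ligand of leukocytes, was highest in spleen macrophages (493 and 547 CPM) and spleen monocytes (432 and 505 CPM). Next came tumor T cells (358 and 435 CPM), tumor NK cells of the library labelled KO (474 CPM) and, in spleen, conventional dendritic cells (277 and 339 CPM). The counting intervals of these neighbours overlap in part, and the order among them is not resolved beyond the gap between the 2 libraries. In marrow it was lower in neutrophils (87.3 and 72.1 CPM) and immature neutrophils (80.1 and 56.9 CPM) than in stem and multipotent progenitors (292 and 329 CPM), granulocyte-monocyte progenitors (244 and 226 CPM) and monocytes (253 in both). The carcinoma class had 47.8 and 44.1 CPM, and spleen plasma cells of the library labelled WT had 14.6 CPM.

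In macrophages Tgfb1 went from 493 and 547 CPM in spleen to 207 in both tumor libraries, a log2 change of -1.05 ± 0.14 (SE; adjusted p = 0.000491). The groups did not overlap, and the change held with library totals (-1.33) and after subtraction of carcinoma RNA (-0.95). Spleen macrophages also held T cell markers at 135 and 133 CPM summed over the list, against 8.33 and 18 CPM in tumor, and neutrophil markers at 1360 and 1430 against 603 and 829 CPM; their part in this and the other macrophage results was not tested. Monocytes had 432 and 505 CPM in spleen and 239 and 309 CPM in tumor, also without overlap, but the adjusted p of 0.0642 missed the threshold; it was 0.0122 with library totals and 0.0391 with labelled genotype as a term. In neutrophils the levels were 128 and 199 CPM in spleen and 117 and 116 CPM in tumor. That difference was called (log2 change -0.81 ± 0.21, adjusted p = 0.00777), but not with library totals (-0.48, adjusted p = 0.0923), with carcinoma RNA subtracted (-0.46, adjusted p = 0.14) or without the tumor library labelled WT (adjusted p = 0.0759).

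T cells moved the other way. Tgfb1 was at 130 and 144 CPM in spleen T cells and 358 and 435 CPM in tumor T cells, a log2 change of 1.40 ± 0.15 (adjusted p = 0.000128) on 68 and 153 tumor UMIs. NK cells had 210 and 246 CPM in spleen and, in the tumor library labelled KO, 474 CPM; only 34 NK cells came from the other tumor library, and no test was made. Within spleen T cells the level was 187 and 213 CPM in cells with Foxp3, the gene of regulatory T cells, 144 and 166 CPM in other cells with Cd4 and 98.8 and 112 CPM in cells with Cd8a or Cd8b1. The 29 tumor T cells with Cd8a or Cd8b1 in the library labelled KO had 823 CPM (95% interval 658 to 1020), above all 3 spleen subsets. Macrophage markers summed to 22.9 and 13 CPM in spleen T cells and 252 and 299 CPM in tumor T cells; their part in the result was not tested.

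Tgfb2, a second ligand, was at 0 or on at most 7 UMIs in every marrow and spleen class except spleen macrophages of the library labelled KO (12 UMIs). Spleen neutrophils had 0 UMIs in both libraries, and tumor neutrophils had 32 and 20 UMIs (21.7 and 10.3 CPM), at least 62.7-fold higher against a floor of 3 counts over both spleen libraries. Tumor macrophages had 8.71 and 3 CPM against 3.98 and 16.3 CPM in spleen; the groups overlapped and the adjusted p was 0.518. The carcinoma class had 46.3 and 25.9 CPM on 945 and 343 UMIs. Cells gated on fibroblast markers had more, 82.6 and 36.9 CPM, and tumor cells with too few markers for a class had 67.6 and 33.7 CPM. As a percentage of the carcinoma level, Tgfb2 was at 46.9% and 39.7% in tumor neutrophils, 22.4% and 13.3% in monocytes and 18.8% and 11.6% in macrophages, in each case above the keratin percentage of that class. In tumor T cells it was at 0% and 22.0%, below and above the keratin percentages of 7.79% and 7.87%, on 0 and 2 UMIs. After subtraction of carcinoma RNA in proportion to the keratins, the neutrophil difference kept an adjusted p of 0.000483. That subtraction and the keratin percentages cover carcinoma RNA only, whereas cells gated on fibroblast markers and cells without a class had more Tgfb2. Summed fibroblast markers were at 0.699 and 0 CPM in spleen neutrophils and 169 and 101 CPM in tumor neutrophils. The part of RNA from such cells in the result was not tested.

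The share of carcinoma cells with at least 1 Tgfb2 UMI was 51.3% and 36.3% (median depths 21701.5 and 24726 UMIs). Tumor T cells, which served as the background class, had 0% and 1.63% at median depths of 2768 and 2439 UMIs; with 54 cells in the library labelled WT, an exact interval allows up to 6.6%. Thinned to 1000 UMIs per cell, with 2 and 0 carcinoma cells and 0 and 3 T cells left out as too shallow, the shares were 4.87% and 3.59% in carcinoma cells and 0% and 0.833% in T cells. The intervals of the thinned shares (3.57% to 6.46% and 2.18% to 5.55% against upper limits of 6.6% and 4.56%) overlap, so at equal depth the T cells are too few to set the 2 classes apart.

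Tgfb3, the third ligand, was also a tumor transcript. Spleen macrophages had 0 UMIs in both libraries and tumor macrophages 77 and 45 UMIs (14.6 and 9.65 CPM), at least 5.06-fold higher (adjusted p = 0.00381). Neutrophils had 1 UMI in each spleen library and 16 and 11 in tumor, 48.8 times the spleen level (counting interval 12.3 to 424) (adjusted p = 0.000129). In monocytes the ratio was 25.6 (interval 4.07 to 1060) on 1 spleen and 19 tumor UMIs, and the gene was too low to be tested. In T cells it passed the test (log2 change 3.31 ± 0.86, adjusted p = 0.0199) on only 2 and 3 tumor UMIs, and the call was lost without either tumor library. The carcinoma class had 11.6 and 8.54 CPM, so that tumor macrophages stood at 126% and 113% of the carcinoma level and tumor neutrophils at 93.5% and 66.2%, above their keratin percentages. Cells gated on fibroblast markers had more, 33.0 and 20.5 CPM, and fibroblast markers summed to 77.1 and 42.7 CPM in tumor macrophages and 169 and 101 CPM in tumor neutrophils; their part in the result was not tested. At 1000 UMIs per cell, 2.5% and 1.87% of tumor macrophages had a Tgfb3 UMI (49 and 26 cells left out), 1.08% and 0.945% of carcinoma cells and 1.85% and 0% of tumor T cells, the background class. Before thinning these shares were 8.58% and 6.61%, 19.7% and 16.8%, and 3.7% and 1.63%. The macrophage shares thus do not stand above the interval of the background class at this depth, which reaches 9.89% and 3.03%.

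Of the receptors, Tgfbr2, the ligand-binding type 2 chain, fell in macrophages from 251 and 265 CPM in spleen to 127 and 122 CPM in tumor (log2 change -0.77 ± 0.14, adjusted p = 0.00263). The 2 tumor libraries lay close together and well under the spleen values. T cells had 182 and 166 CPM in spleen and 116 and 134 CPM in tumor (log2 change -0.61 ± 0.17, adjusted p = 0.0305). This call was lost with library totals (adjusted p = 0.0898) and without each of the 4 libraries in turn. In neutrophils (76.9 and 83.7 against 90.3 and 92.0 CPM) and monocytes (55.4 and 61.0 against 68.3 and 79.4 CPM) Tgfbr2 did not pass (adjusted p = 0.468 and 0.053, the latter 0.0477 with labelled genotype as a term), and the neutrophil change had the opposite sign with library totals. Elsewhere in spleen Tgfbr2 was at 166 and 184 CPM in B cells, while in marrow it was at 6.46 and 8.72 CPM in granulocyte-monocyte progenitors and 5.65 and 3.88 CPM in erythroid cells.

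Tgfbr1, the type 1 chain that carries the signalling kinase, was highest in spleen macrophages, at 75.6 and 77.6 CPM, and tumor macrophages had 45.3 and 45.1 CPM. The spleen and tumor values did not overlap, but the adjusted p was 0.0589, and 0.0096 with library totals. Monocytes had 47.1 and 38.7 CPM in spleen and 28.5 and 23.5 CPM in tumor (adjusted p = 0.138, and 0.0483 with library totals). In neutrophils (19.9 and 32.0 against 28.5 and 30.8 CPM) and T cells (14.7 and 15.3 against 10.5 and 11.4 CPM) there was no call either, with adjusted p of 0.744 and 0.446.

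Skil was the regulator with the same direction throughout. Neutrophils had 38.4 and 61.4 CPM in spleen and 215 and 168 CPM in tumor (log2 change 1.61 ± 0.22, adjusted p = 0.000176). Monocytes had 43.7 and 55.1 CPM in spleen and 174 and 131 CPM in tumor (1.84 ± 0.21, adjusted p = 0.000209). Macrophages had 41.8 and 59.9 CPM in spleen and 126 and 118 CPM in tumor (1.51 ± 0.21, adjusted p = 0.00058). In every class both tumor libraries were above both spleen libraries. T cells had 43.0 and 56.5 CPM in spleen and 137 and 182 CPM in tumor (1.57 ± 0.23, adjusted p = 0.000787), on 26 and 64 tumor UMIs, and there the call was lost without the tumor library labelled KO (1.21, adjusted p = 0.0855). The carcinoma class had 97.5 and 80.0 CPM, below all 4 tumor leukocyte classes, and with carcinoma RNA subtracted the log2 changes were 1.94, 1.91, 1.55 and 1.63, all called. Macrophage markers summed to 52.8 and 31.2 CPM in spleen neutrophils and 1020 and 839 CPM in tumor neutrophils; their part in the result was not tested.

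The share of cells with a Skil UMI at 1000 UMIs per cell went from 3.22% and 6.46% of spleen neutrophils to 18.8% and 15.3% of tumor neutrophils (97, 31, 154 and 161 cells left out). For T cells it went from 4.12% and 5.41% to 14.8% and 18.3% (28, 16, 0 and 3 left out). Without thinning the shares were 10.9%, 14.5%, 28.1% and 23.7% in neutrophils and 12.9%, 20.7%, 37% and 39% in T cells. Skil has no class that should lack it, so no background share is given.

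Smad7, the inhibitor of the type 1 receptor, rose in macrophages from 27.9 and 25.9 CPM to 54.7 and 52.1 CPM (log2 change 1.28 ± 0.22, adjusted p = 0.00219). In monocytes (54.3 and 39.3 against 63.9 and 76.6 CPM) it was called at 0.81 ± 0.23 (adjusted p = 0.0244), but not with library totals (0.59, adjusted p = 0.0738), nor without the spleen or the tumor library labelled KO (adjusted p = 0.0943 and 0.163). Neutrophils had 32.9 and 51.9 CPM in spleen and 67.2 and 54.0 CPM in tumor, and T cells 194 and 182 against 131 and 202 CPM; neither passed (adjusted p = 0.464 and 0.352). Its highest levels were in marrow stem and multipotent progenitors (225 and 180 CPM) and in these T cells, and its lowest in immature neutrophils of marrow (2.43 and 4.97 CPM) and plasma cells (0.809 CPM, 1 UMI).

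Il10 itself was sparse, and monocytes were the class in which a change was called. In neutrophils it was too low to be tested (0.583 and 2.65 CPM in spleen, 4.75 and 2.57 CPM in tumor), so the change cannot be called particular to monocytes. There were 1 and 5 UMIs in spleen monocytes (0.554 and 2.93 CPM), the 5 in a single cell, and 29 and 21 UMIs in tumor monocytes (25.1 and 14.5 CPM). The log2 change was 3.66 ± 0.59 (adjusted p = 0.00148), 3.45 with library totals and 3.79 with carcinoma RNA subtracted. The tumor values came from 13 and 10 cells, or 4.41% (exact interval 2.37% to 7.42%) and 3.24% (1.56% to 5.87%) of monocytes, against 0.495% and 0.543% in spleen. As background, 0.766% and 0.473% of tumor neutrophils (median depths 1418 and 1502 UMIs) and 0.756% and 0.378% of carcinoma cells had an Il10 UMI. At 1000 UMIs per cell the shares were 2.55% and 1.64% of tumor monocytes (21 and 4 left out, median depths 3580 and 4110 before thinning), 0.159% and 0.446% of tumor neutrophils (154 and 161 left out) and 0% of carcinoma cells (2 and 0 left out), which allows up to 0.398% and 0.695%. Macrophage markers summed to 394 and 383 CPM in spleen monocytes and 1850 and 1640 CPM in tumor monocytes; their part in the result was not tested.

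Macrophages did not show that change. Il10 was at 1.99 and 23.1 CPM in spleen macrophages and 8.52 and 6.44 CPM in tumor macrophages (adjusted p = 0.455), and the 23.1 CPM came from 17 UMIs in 3 cells. Without that spleen library the log2 change was 2.21 with an adjusted p of 0.134. T cells had 1.47 and 2.24 CPM in spleen, with 2.99 and 3.85 CPM in cells with Cd4 but neither Foxp3 nor Cd8 transcripts and 3.67 and 4.27 CPM in cells with Foxp3. In tumor T cells there were 0 UMIs and 1 UMI, and at this depth a floor of 3 counts corresponds to 15.8 and 8.54 CPM, above any spleen T cell level.

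Il10ra, the ligand-binding receptor chain, fell in macrophages from 169 and 207 CPM in spleen to 43.6 and 52.3 CPM in tumor (log2 change -1.70 ± 0.19, adjusted p = 0.000184). Monocytes went from 159 and 176 CPM to 71.7 and 90.4 CPM (-0.82 ± 0.20, adjusted p = 0.012), a call that was lost without the tumor library labelled WT (adjusted p = 0.126). Both tumor values were below both spleen values in each of these classes. In neutrophils (91.8 and 111 against 76.7 and 86.4 CPM) the call at -0.64 ± 0.19 (adjusted p = 0.0143) was lost with library totals (adjusted p = 0.194), with carcinoma RNA subtracted (adjusted p = 0.503) and without the tumor library labelled WT (adjusted p = 0.138). T cells had 22.7 and 24.3 CPM in spleen and 36.8 and 39.8 CPM in tumor, with no call (adjusted p = 0.22). In marrow Il10ra was at 32.7 and 44.7 CPM in monocytes, 11.6 and 17.5 CPM in neutrophils and 0.461 and 0.815 CPM in granulocyte-monocyte progenitors.

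Il10rb, the shared signalling chain, went the other way from Il10ra in monocytes. It rose there from 62.6 and 48.7 CPM to 134 and 139 CPM (log2 change 1.51 ± 0.20, adjusted p = 0.000436), with library totals also (1.29). Macrophages had 153 and 165 CPM in spleen and 91.7 and 100 CPM in tumor (-0.45 ± 0.16, adjusted p = 0.0438), a call lost with DESeq2 (adjusted p = 0.19), carcinoma RNA subtracted (0.103), no filter (0.176), 1 more marker (0.0622), thinning (0.234) and without 3 of the 4 libraries (0.0841 to 0.237). In neutrophils (115 and 120 against 128 and 134 CPM) and T cells (47.4 and 42.6 against 26.3 and 31.3 CPM) it did not pass (adjusted p = 0.393 and 0.0947), and the neutrophil change of -0.18 was 0.16 with library totals.

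The carcinoma class was then compared with the leukocytes of the same tumor libraries. It was set apart by more Tgfb2 and by low levels of both interleukin 10 receptor chains and of Tgfbr1. Of the 10 members, 1 was higher and 7 were lower, where 71.5% of all 12586 tested genes were called (33.8% higher, 37.7% lower). Tgfb2 was 4.15-fold higher (log2 difference 2.05 ± 0.15, adjusted p = 8e-12), with ratios by library of 4.27 (counting interval 3.44 to 5.36) and 5.11 (3.73 to 7.17). The value depended on the leukocyte gate: the log2 difference was 0.69 with carcinoma-rich leukocytes kept (adjusted p = 9.66e-05) and 2.72 with carcinoma RNA subtracted (adjusted p = 2.15e-10). P-values of this comparison come from 2 libraries with few residual degrees of freedom, and lean on the spread pooled over all genes. Without the library block the adjusted p was 0.00521 for Tgfb2, 2.81e-05 for Tgfb1, 4.21e-05 for Tgfbr1 and 0.000209 for Il10. It was 1.02e-05 for Il10ra and for Il10rb, and 0.00226 for Skil. Tgfb1 was at 47.8 and 44.1 CPM against 204 and 221 CPM in the leukocytes, 5.14-fold lower (adjusted p = 4.36e-16). Tgfb3 (11.6 and 8.54 against 12.9 and 8.18 CPM) and Smad7 (78.4 and 77.2 against 61.6 and 66.6 CPM) did not pass (adjusted p = 0.286 and 0.285), Smad7 having an adjusted p of 0.0349 with library totals.

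Carcinoma cells had the type 2 but little of the type 1 receptor transcript relative to leukocytes. Tgfbr2 was at 96.2 and 91.1 CPM against 112 and 110 CPM, 1.32-fold lower (adjusted p = 0.00109), a call lost when cells were thinned to 1000 UMIs. Tgfbr1 was at 4.31 and 2.95 CPM against 38.3 and 36.1 CPM, 11.2-fold lower (adjusted p = 1.02e-15). Il10ra had 10 and 4 UMIs in the carcinoma class (0.49 and 0.302 CPM) against 53.2 and 67.9 CPM in leukocytes, 154-fold lower (adjusted p = 3.3e-20). The fold was 108 and 225 by library, and the log2 difference of -7.27 was -5.29 with cells thinned to 1000 UMIs, and its size rests on those few carcinoma UMIs. By cells, 0.972% and 0.756% of carcinoma cells had an Il10ra UMI, against 0% (which allows up to 2.27%) and 0.342% of marrow erythroid cells as background (median depths 20304 and 13804 UMIs), so the carcinoma share did not stand above background. Tumor neutrophils had 12.9% and 13.8%. At 1000 UMIs per cell these shares were 0.108% and 0%, 0% and 0%, and 8.74% and 7.48%, with 2, 0, 1, 1, 154 and 161 cells left out; the 0% in carcinoma cells allows up to 0.695%, and those in erythroid cells up to 2.28% and 1.26%. Il10rb was at 11.6 and 10.6 CPM, 10.5-fold lower (adjusted p = 1.5e-18), Skil 1.79-fold lower (adjusted p = 7.23e-08), and Il10, with 8 and 2 UMIs, 31-fold lower (adjusted p = 2.12e-11).

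**Figure D3:**
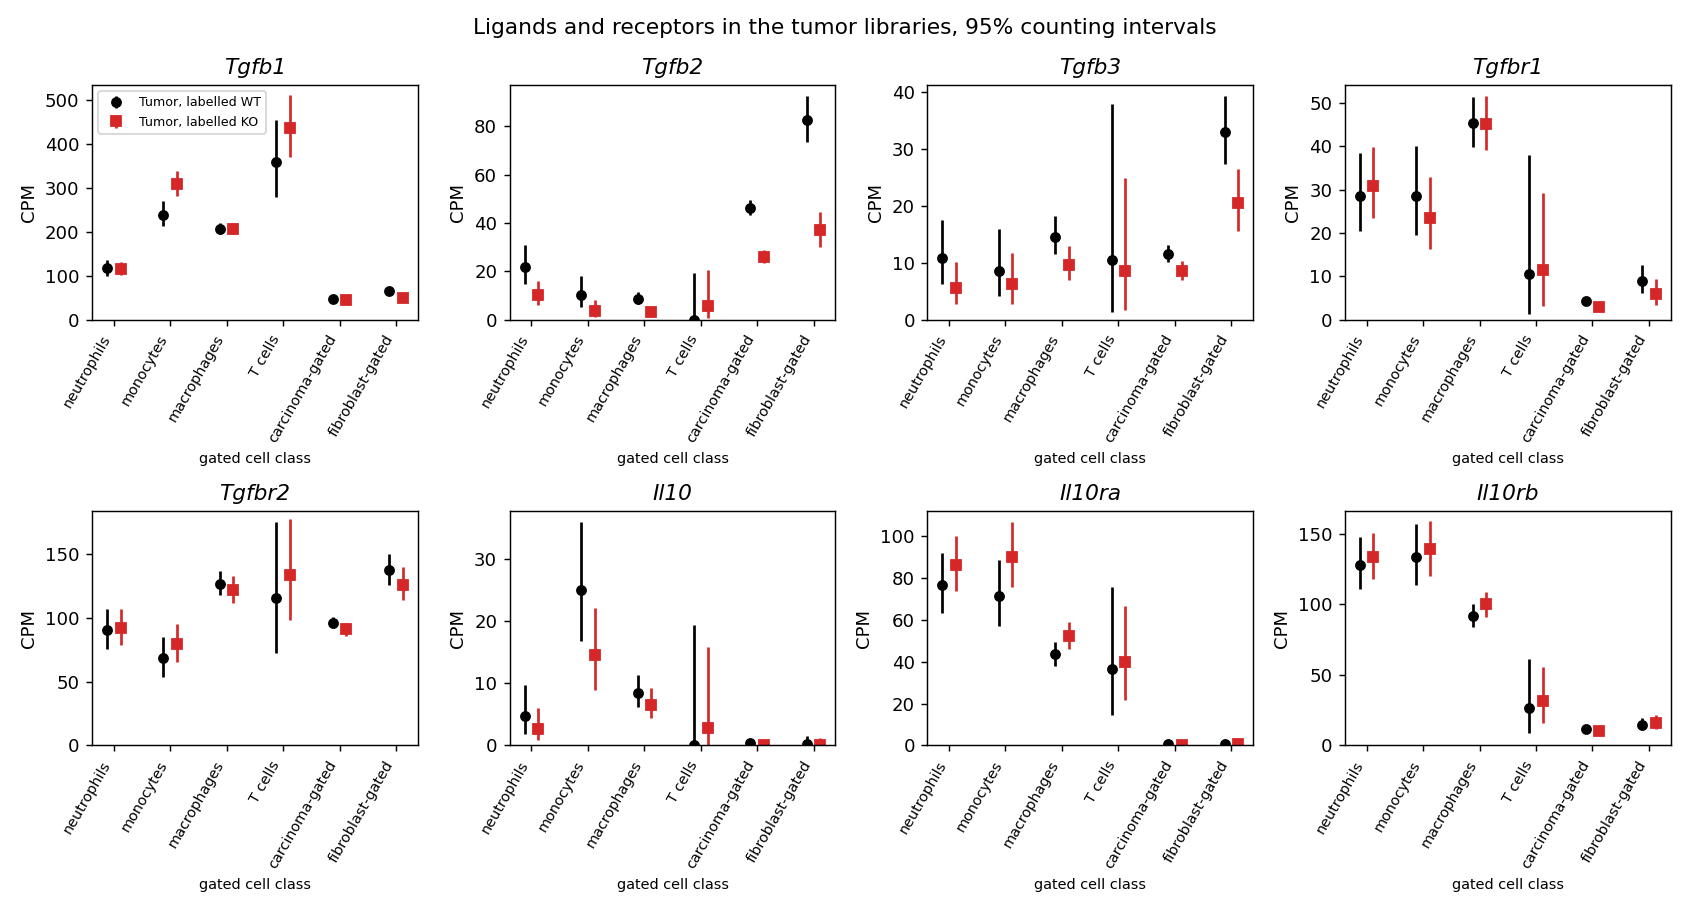
CPM of the ligands and receptors in 6 gated classes of the tumor libraries labelled WT (black) and KO (red), with exact 95% Poisson intervals for counting error. Tgfb2 is highest in carcinoma cells and cells gated on fibroblast markers, while Il10ra, Il10rb and Tgfbr1 are at their lowest there.

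Other genes of the 2 pathways were taken from lists by role. Among 11 genes that store or release TGF-beta, 7 rose and 1 fell of 9 tested in tumor neutrophils, 5 and 1 of 6 in monocytes, 4 and 1 of 7 in macrophages and 4 and 0 of 7 in T cells. Over all genes 33.3% rose in neutrophils, 17.9% in monocytes, 23.7% in macrophages and 12.2% in T cells. With carcinoma RNA subtracted, 5 rose of 7 tested in neutrophils and 3 of 4 in monocytes. Fibroblast markers summed to 0.699 and 0 CPM in spleen neutrophils and 169 and 101 CPM in tumor neutrophils; their part in the result was not tested. The list's median log2 change was 5.78 in neutrophils (5.18 with genes at 0 in spleen set to their bound), 2.87 in monocytes, 2.88 in macrophages and 2.53 in T cells, against medians between -0.14 and 0.06 over all tested genes. The neutrophil value of 5.78 is that of a gene with 1 spleen UMI and 26 tumor UMIs, so its size is uncertain. Thbs1, which encodes thrombospondin 1, an activator of latent TGF-beta, rose in neutrophils from 1.63 and 1.32 CPM to 388 and 299 CPM and in monocytes from 75.9 and 63.9 CPM to 837 and 1000 CPM. Furin, the convertase that cleaves the TGF-beta precursor, rose in macrophages from 17.9 and 28.6 CPM to 124 and 116 CPM (log2 change 2.59 ± 0.23, adjusted p = 6.21e-05). Nrros, whose product anchors latent TGF-beta on myeloid cells, was the gene of this list that fell: from 179 and 218 CPM to 48.2 and 30.8 CPM in neutrophils (-2.68 ± 0.22, adjusted p = 8.47e-06), by 0.93 on the log2 scale in monocytes and by 0.66 in macrophages. In the carcinoma class Nrros was 184-fold lower than in leukocytes, while the latent TGF-beta binding protein gene Ltbp1 was 3.76-fold higher.

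Of 13 co-receptor and signalling genes, 8 rose and 2 fell of 12 tested in neutrophils (9 and 0 with library totals), 4 and 1 of 11 in monocytes, 5 and 1 of 13 in macrophages and 2 and 1 of 12 in T cells. Their median log2 changes were 1.66, 0.91, 0.15 and -0.25, beside 0.06, -0.02, 0.04 and -0.14 over all genes. In T cells 3 of 12 is close to the 23.1% called over all genes, and in neutrophils, monocytes and macrophages the shares over all genes were 64.7%, 32.4% and 43.7%. The called gene with the largest change on this list in each of the 4 classes was Pmepa1, a TGF-beta-induced gene whose product holds back SMAD signalling. It rose from 4.78 and 6.35 CPM to 165 and 104 CPM in neutrophils, from 1.11 and 2.34 CPM to 211 and 196 CPM in monocytes and from 5.97 and 8.16 CPM to 510 and 436 CPM in macrophages. In T cells it rose from 60.5 and 48.2 CPM to 321 and 347 CPM (log2 change 2.48 ± 0.17, adjusted p = 5.2e-06). Ski, the paralog of Skil, rose in monocytes (log2 change 2.20) and macrophages (1.97), and Tgif1, another SMAD co-repressor, rose in neutrophils from 26.0 and 37.3 CPM to 357 and 531 CPM.

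Among 9 TGF-beta target genes, 5 rose and 2 fell of 9 tested in neutrophils, 6 and 1 of 8 in monocytes, 6 and 2 of 8 in macrophages and 3 and 1 of 7 in T cells, with median log2 changes of 1.22, 1.76, 2.42 and 1.47 beside 0.06, -0.02, 0.04 and -0.14 over all genes. The 7 of 9 called in neutrophils stand beside 64.7% of all genes, and the shares over all genes were 32.4% in monocytes, 43.7% in macrophages and 23.1% in T cells. The risers included genes of matrix-producing cells: Ccn2 and Col1a1 were at 0 in spleen neutrophils and at least 170-fold and 435-fold higher in tumor neutrophils. The fibroblast markers given above moved with them, and both genes were higher in the carcinoma class than in leukocytes (5.62-fold and 4.45-fold); their part in the result was not tested. Tgfbi, a secreted matrix protein gene, fell in neutrophils from 533 and 603 CPM to 230 and 155 CPM. It rose in monocytes (log2 change 0.95, adjusted p = 0.00514) and macrophages (1.56, adjusted p = 0.000805). Tgfbi also rose in T cells, from 5.28 and 1.34 CPM to 15.8 and 34.2 CPM (3.0, adjusted p = 0.0327), a low level in few tumor T cells. Tumor macrophages had 589 and 735 CPM of it. Macrophage markers summed to 22.9 and 13 CPM in spleen T cells and 252 and 299 CPM in tumor T cells, and their part in the result was not tested. Junb fell in all 4 classes, in T cells from 5000 and 4810 CPM to 805 and 1240 CPM. Id2 rose in monocytes from 241 and 281 CPM to 751 and 801 CPM, and also in neutrophils (log2 change 1.22) and T cells (1.47). In macrophages Id2 fell, from 1750 and 2950 CPM to 557 and 484 CPM (-1.9).

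On the interleukin 10 side, the signalling list had no riser and 4 genes that fell of 5 in neutrophils, where 31.4% of all genes fell. With library totals or with carcinoma RNA subtracted, 1 gene of the list fell there. The list's median log2 change was -0.81 in neutrophils, 0.21 in monocytes, -0.32 in macrophages and -0.60 in T cells, beside 0.06, -0.02, 0.04 and -0.14 over all tested genes. In macrophages Socs3, the feedback inhibitor induced by STAT3, rose from 17.9 and 8.16 CPM to 216 and 233 CPM (log2 change 4.47 ± 0.27, adjusted p = 6.66e-06), while Tyk2 fell. Monocytes had 1 riser, Socs3 (59.3 and 73.9 against 250 and 293 CPM), and 1 gene that fell, Tyk2. In T cells Stat3 rose from 127 and 128 CPM to 484 and 549 CPM. Of the 5 transcription factor genes linked to interleukin 10 production, 1 rose and 4 fell in macrophages, 1 rose and 2 fell in monocytes, 2 rose and 2 fell in neutrophils, and 2 rose and 0 fell in T cells, with medians of -1.02, -0.19, -0.71 and 0.91 in that order. The shares of all genes called were 43.7%, 32.4%, 64.7% and 23.1% in the same order. Maf moved in opposite directions in macrophages (358 and 538 to 71.2 and 59.2 CPM) and monocytes (9.41 and 26.4 to 99.4 and 82.8 CPM).

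Of 8 genes known to be induced by interleukin 10, 3 rose and 5 fell in neutrophils (3 and 3 with library totals), 3 and 1 in monocytes, 3 and 3 in macrophages and 3 and 2 in T cells, with median log2 changes of -0.84, 0.40, 0.13 and 0.37. Over all genes 33.3% rose and 31.4% fell in neutrophils, 17.9% and 14.5% in monocytes, 23.7% and 20% in macrophages and 12.2% and 11% in T cells. Il1rn, the interleukin 1 receptor antagonist gene, rose in neutrophils from 170 and 243 CPM to 1040 and 2010 CPM and in monocytes from 17.2 and 48.7 CPM to 614 and 661 CPM. In macrophages it was at 0 in spleen and 307 and 372 CPM in tumor, at least 139-fold higher. Zfp36, which encodes the mRNA decay factor tristetraprolin, fell in all 4 classes, in macrophages from 2990 and 4690 CPM to 507 and 543 CPM. Hmox1, the haem oxygenase gene of iron-recycling macrophages, rose in neutrophils (152 and 145 to 810 and 933 CPM) and monocytes (61.5 and 231 to 1040 and 740 CPM) and fell in macrophages (3550 and 5530 to 1130 and 1010 CPM). In the carcinoma class 7 of 8 of these genes were lower than in leukocytes, where 37.7% of all genes were, and none was higher (1 with library totals).

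Library labelled KO against library labelled WT has 1 pool on each side, so ratios are given with exact conditional 95% intervals for counting error and no p-value. A ratio counts as past the rule when it reaches 1.5-fold, its interval leaves out 1 and there are at least 30 UMIs in the pair. In tumor, the ligands Tgfb2 and Tgfb3 were lower in the library labelled KO: 6 of 46 member and class pairs passed (13%), all lower and all of these 2 genes, where 8.63% of all gene and class pairs passed (4.63% lower, 4.0% higher). In spleen 7 pairs were higher and 1 lower of 51, or 15.7% against a background of 8.06% (4.39% higher, 3.67% lower). In marrow 3 were higher and 3 lower of 42, or 14.3% against 7.39% (3.02% higher, 4.37% lower).

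Tgfb2 in the carcinoma class was at 46.3 CPM in the library labelled WT and 25.9 CPM in that labelled KO, a ratio of 0.56 (interval 0.493 to 0.634). The ratio was 0.447 (0.355 to 0.559) in cells gated on fibroblast markers, 0.473 (0.257 to 0.854) in neutrophils and 0.345 (0.175 to 0.638) in macrophages. Fibroblast markers, summed over the list, were at 169 and 101 CPM in these neutrophils and 77.1 and 42.7 CPM in these macrophages, and the macrophage keratin percentage was 9.27% and 5.16%; their part in the result was not tested. Tumor cells without a class had it in the same direction, at 67.6 and 33.7 CPM. Tgfb3 went from 33.0 to 20.5 CPM in cells gated on fibroblast markers (0.623, 0.448 to 0.857) and from 14.6 to 9.65 CPM in macrophages (0.662, 0.448 to 0.968). The macrophage Tgfb3 pair no longer passed with TMM factors (log2 ratio -0.58), a mitochondrial limit of 5% (-0.53), mixed cells put in the class with most markers (-0.46) or 1 more marker (-0.50). The carcinoma Tgfb2 pair did not pass with cells thinned to 1000 UMIs (-0.72). For Tgfb2 in neutrophils and macrophages and for both Tgfb3 pairs no ratio with thinned cells was available. Tgfb1 did not pass in any tumor class: the ratio was 0.995 (0.813 to 1.22) in neutrophils, 0.999 (0.915 to 1.09) in macrophages and 1.29 (1.11 to 1.51) in monocytes. The Cysltr1 level of tumor neutrophils did not set the tumor libraries apart by label. The label gives the genotype of the host, whereas the EMT6 carcinoma line was transplanted. No direction in tumor is therefore tied to the genotype.

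**Figure D4:**
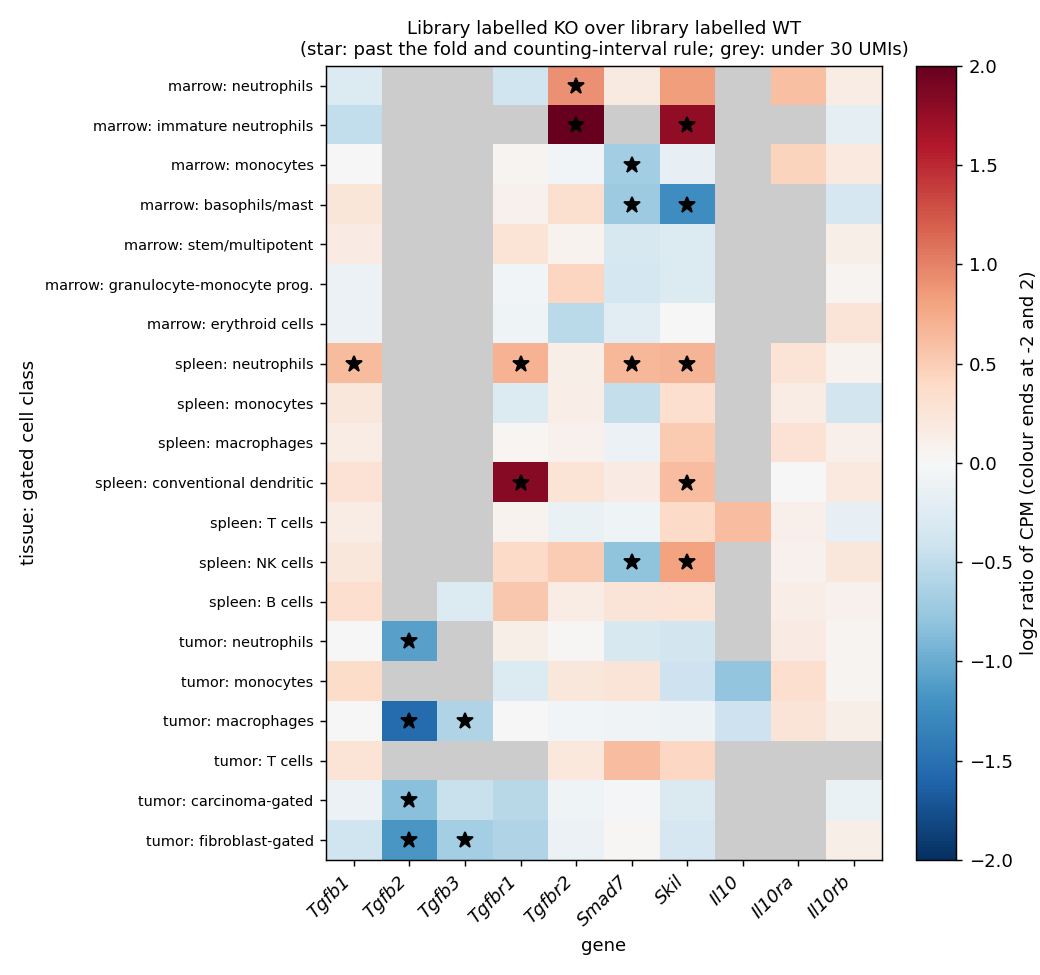
Log2 ratio of CPM in the library labelled KO over that labelled WT, by colour, for the 10 genes (columns) in 20 tissue and class rows; stars mark pairs past the rule and grey cells had under 30 UMIs. The 6 stars in tumor rows are blue and in the Tgfb2 and Tgfb3 columns, and spleen neutrophils have 4 red stars.

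Spleen neutrophils had 4 members higher in the library labelled KO, where 5.99% of all genes were. Tgfb1 was at 128 and 199 CPM (ratio 1.55, interval 1.41 to 1.70), Tgfbr1 at 19.9 and 32.0 CPM (1.61, 1.26 to 2.04), Smad7 at 32.9 and 51.9 CPM (1.58, 1.31 to 1.90) and Skil at 38.4 and 61.4 CPM (1.60, 1.34 to 1.90). With TMM factors between the 2 sums, Tgfb1 (log2 ratio 0.56) and Smad7 (0.58) no longer passed, and thinned to 1000 UMIs Smad7 was at 0.23. Conventional dendritic cells had more Tgfbr1 (6.91 and 24.3 CPM; 3.52, 2.02 to 6.37) and Skil (64.7 and 98.8 CPM; 1.53, 1.24 to 1.89), the latter not passing with TMM factors (log2 ratio 0.48) or most markers (0.55). NK cells had more Skil (43.0 and 75.5 CPM; 1.75, 1.11 to 2.86) and less Smad7 (117 and 66.7 CPM; 0.57, 0.406 to 0.803), which did not pass when thinned (log2 ratio -0.57). These are the spleen libraries whose Cysltr1 level goes against their labels, so no direction is tied to the genotype.

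In marrow Tgfbr2 was higher in neutrophils of the library labelled KO (16.0 and 30.3 CPM; 1.89, 1.07 to 3.47) and in immature neutrophils (3.64 and 16.0 CPM; 4.40, 1.36 to 22.6), the latter on 3 and 29 UMIs and not passing with most markers (log2 ratio 0.69). In marrow neutrophils 5.07% of all genes were higher and 18.9% lower, and in immature neutrophils 5.09% and 4.25%. Skil was higher in immature neutrophils (4.86 and 16.6 CPM; 3.41, 1.20 to 13.3) and lower in basophils and mast cells (28.7 and 12 CPM; 0.419, 0.236 to 0.712). Smad7 was lower in monocytes (26.7 and 16.5 CPM; 0.619, 0.503 to 0.757) and in basophils and mast cells (29.2 and 17.7 CPM; 0.608, 0.374 to 0.965). Median depth differed between these libraries, at 13071 and 6521 UMIs per cell, and Cysltr1 went against the labels here too.

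Over 39 library and class units of at least 100 cells, the genes most like each of 3 members were ranked by Pearson correlation of log2(CPM + 1). These correlations are descriptions over units that share libraries and depth. Tgfb1 was most like Cd48 (0.88), Aim2 (0.87) and Dock10 (0.84). Tgfb3 was most like Itga3 (0.93), Gpx8 (0.93) and Dixdc1 (0.92). Il10, on 267 UMIs in all units, was most like Siglec1 (0.86), Ms4a7 (0.85), which is itself one of the macrophage markers used to sort the cells, and Abca1 (0.82).

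In GRCm38, with gene positions from GENCODE vM21 by gene identifier, Tgfb1 lies at chr7:25687002-25705077, Tgfb2 at chr1:186622792-186705989, Tgfb3 at chr12:86056745-86079041, Tgfbr1 at chr4:47353222-47414931, Tgfbr2 at chr9:116084293-116175360, Skil at chr3:31095058-31122577, Il10 at chr1:131019845-131024974, Il10ra at chr9:45253837-45269149 and Il10rb at chr16:91406164-91425834. All are protein-coding genes. Smad7 is a protein-coding gene on chromosome 18.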

How the data were processed

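Single-cell UMI counts were analysed from 6 droplet libraries. The deposited files hold UMI counts per gene and cell barcode, made by the authors with Cell Ranger, version 6.1.0 per the file headers and 6.0.0 per the submitters' processing notes, on mm10. Both 5′ and 3′ kits are named, per the labels' protocols, and which transcript end was read is not settled here. Antibody features in 3 libraries (19 each, 1 to 3 counts in all) were left out.

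Cells with at least 300 genes, 500 UMIs and at most 10% mitochondrial UMIs were kept. A cell joined the class with most of its fixed markers detected, at least 3; ties, or another class with at least 3 markers and over 0.75 times as many, made it mixed and left out (4.78% to 29.4% of cells), which also served against doublets, since no doublet caller was run. A class in a library also needed its first-listed marker in 25% of its cells. Tumor leukocytes whose summed level of 8 carcinoma genes was over 0.5 times the carcinoma median were left out (967 and 676 cells). These scoring thresholds were set after seeing the data; the members, markers and lists were chosen with earlier results of these data known. Genes named from the lists are up to 4 per list and comparison with the largest change among those called. Nrros in spleen and tumor leukocytes, Tgfbi and Junb outside T cells, and Id2 in neutrophils and macrophages were named after their values were seen. Some genes of the lists are counted but not reported here by name.

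UMIs were summed per library and class and fitted across all genes with edgeR 4.0.16 (quasi-likelihood, TMM, filterByExpr; R 4.3.3), as tumor against spleen and, with library as a block, carcinoma against leukocytes. P-values measure the spread between 2 libraries per tissue, of different labelled genotypes, and in the carcinoma comparison the spread left after the library block. CPM are per total of the class, with exact Poisson intervals, and shares have exact Clopper-Pearson intervals, both at 95% and for counting error only; floors are 3 counts. Alternatives were DESeq2 1.42.0, no filter, genotype as a term, no library block, each library left out, other gates and cells thinned to 1000 UMIs. Library totals, carcinoma-rich cells kept and carcinoma RNA subtracted by keratin level were alternatives chosen after seeing the data. The code was tested on simulated data. Python 3.11.15, numpy 2.4.6, scipy 1.17.1, pandas 2.3.3 and matplotlib 3.10.9 were used.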

Additional observations from a re-analysis of the deposited data

How the results depend on the processing

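Over the tested members, 517 results under alternatives kept their direction and side of the threshold, 32 lost the call, 20 gained one and 20 changed sign. Of the genotype ratios that could be compared, 89 still passed and 12 no longer did. Some pairs past the rule had no ratio with thinned cells and are not counted there. In tumor these were Tgfb2 in neutrophils and macrophages and both Tgfb3 pairs. In spleen they were NK cell Skil and dendritic cell Tgfbr1, and in marrow every pair except monocyte Smad7. None of the sign changes concerned a member called in the report. As log2 changes they were, in neutrophils, Il10rb 0.26 with carcinoma RNA subtracted and 0.16 with library totals, Tgfbr1 0.32 and 0.22 with these and 0.19 with mixed cells put in the class with most markers, Tgfbr2 0.04, 0.19 and 0.00 with the same 3, and, leaving out each library in turn, Tgfbr1 -0.41 to 0.15 and Smad7 -0.09 to 0.44. In macrophages they were Il10 (-1.37 to 2.21) and Tgfb2 (-1.56 to 0.89) over libraries left out, highest without the spleen library labelled KO, Tgfb2 1.06 with carcinoma-rich cells kept and Tgfbr1 0.09 thinned. The rest were monocyte Tgfbr2 -0.09 and T cell Il10ra -0.78 thinned, T cell Il10 (-7.17 to 0.42 over libraries left out), and carcinoma Smad7 -0.01 both with carcinoma-rich cells kept and thinned.

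Members called went from 5 to 3 in neutrophils with carcinoma RNA subtracted and with library totals (2 without the tumor library labelled WT, and 2 to 5 over all libraries left out). In monocytes they went from 5 to 10 with carcinoma-rich cells kept and 8 with most markers, in macrophages from 7 to 4 thinned, and in T cells from 4 to 2 thinned and 1 to 2 with 1 library left out. Thinning, which discards most UMIs, lowered all genes called from 9003 to 4887 in carcinoma cells, from 4661 to 1797 in macrophages, from 2993 to 1278 in monocytes and from 2544 to 1014 in T cells. DESeq2 called 5434 in carcinoma cells and 1793 in monocytes. With 1 library left out, T cells had 1177 to 2158 and monocytes 1793 to 2895 genes called. Genotype pairs past the rule fell from 6 to 3 in marrow thinned, and from 8 to 5 in spleen both thinned and with TMM factors. In marrow the 3 are not simply a part of the 6, since of those 6 only monocyte Smad7 had a thinned ratio. The cause was not tested. No paired analysis by replicate number was possible, since every library carries the number 1. With labelled genotype as a term, which pairs the spleen and tumor libraries of each genotype, every member called before was still called, and monocyte Tgfb1 (-0.56, adjusted p = 0.0391) and Tgfbr2 (0.56, adjusted p = 0.0477) were called too. The T cell comparison with 1 more marker had as few as 36 cells and was not run, and carcinoma against leukocytes without 1 library has no residual degrees of freedom. The 54 and 123 tumor T cells limit what could be detected there.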
